A study of Mus musculus with 7 samples.

Results

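Mitf, Tfec, Tfeb, Tfe3, Bhlhe40, Bhlhe41, Pparg and Rxra are transcription factors of lysosomal and lipid genes, and their mRNA was compared between microglia inside and outside neuronal grafts. These 8 of the 55341 genes in the counts were taken by gene name and not by a cut on their values. Earlier results of these data were known when they were chosen. Microglia, the resident macrophages of the brain, were sorted as CD11b+CD45low cells from the cortex of 5xFAD mice on a C57BL/6 background, 4 weeks after the injection of wild-type embryonic cortical cells, at a labelled age of 14 weeks. The hosts of both groups carry human APP and PS1 transgenes driven by the neuron-specific Thy1 promoter, and only female mice were used according to the methods of the study. The 3 inside-graft libraries came from the dissected graft and the 4 outside-graft libraries from small pieces of host cortex near it, so no group came from a mouse without transgenes or without a graft. The labels do not say which libraries share a mouse or whether animals were pooled, and P values therefore measure only the spread between these libraries, which may be technical.

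MITF, TFEB, TFE3 and TFEC form the MiT/TFE family of basic helix-loop-helix leucine zipper proteins, which bind DNA as dimers with each other. When the kinase complex mTORC1 is active at the lysosome, TFEB and TFE3 are phosphorylated and held in the cytoplasm, and when it is inactive they enter the nucleus and switch on lysosome and autophagy genes. BHLHE40 and BHLHE41 are helix-loop-helix repressors of related E-box sequences, known from the circadian clock and from macrophages and microglia, where they restrain lysosomal and lipid genes. RXRA is the common partner of nuclear receptors such as PPARG, the fatty acid sensor that drives lipid uptake and storage genes in alveolar macrophages and fat cells. Much of the control of TFEB and TFE3 is on the protein, and mRNA counts do not report where a protein resides.

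The DNA letters that these factors read are shown for the promoters on which the comparison bears. Promoter windows of 300 bases came from RefSeq on GRCm38.p6, and an entry was found for 7 of the 8 regulators, all but Bhlhe40. The E-box CACGTG, read on both strands, stood in the windows of 8.09% of 27025 genes and among the 7 regulators only in Bhlhe41. The window of Bhlhe41 is shown whole, because BHLHE41 itself belongs to a family that reads this E-box, with the E-box in capitals, its first base at -153 from the start of transcription. The window of Tfec is shown because Tfec had the largest fitted difference of the set. It held none of the E-box forms searched here, and its capitals mark AGGAAGT, a core read by ETS factors such as the macrophage factor PU.1. This core stood in 10.7% of all genes' windows and, among the 7 regulators, in those of Tfec and Tfe3. In the Tfec window it began at base -71.
Tfec (chr6:16898392-16898691, minus strand): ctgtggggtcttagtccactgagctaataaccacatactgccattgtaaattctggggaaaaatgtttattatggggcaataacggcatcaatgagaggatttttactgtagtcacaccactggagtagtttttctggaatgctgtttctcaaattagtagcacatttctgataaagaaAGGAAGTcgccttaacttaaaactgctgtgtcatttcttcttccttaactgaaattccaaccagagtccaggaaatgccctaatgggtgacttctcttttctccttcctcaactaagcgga
Bhlhe41 (chr6:145865371-145865670, minus strand): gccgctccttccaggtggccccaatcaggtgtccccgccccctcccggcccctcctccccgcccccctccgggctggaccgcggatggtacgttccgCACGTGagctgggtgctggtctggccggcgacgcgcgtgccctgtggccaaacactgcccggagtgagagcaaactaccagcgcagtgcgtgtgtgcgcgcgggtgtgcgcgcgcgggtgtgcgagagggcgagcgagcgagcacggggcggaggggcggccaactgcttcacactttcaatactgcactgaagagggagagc

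TCACGTGA, the palindromic form of the lysosomal CLEAR element that TFEB and TFE3 bind, stood in the windows of 1.12% of all genes. It contains the shorter E-box CACGTG. It was found in 7 of the 26 lysosome and autophagy genes with an entry and in Mcoln1, the lysosomal calcium channel that acts upstream of TFEB, while no regulator held it. It also stood in Mlx, from the list of other E-box factors, whose stretch is not shown. The CLEAR genes are known by this element, so the share of 7 of the 26 describes the list and is no finding. The stretches around it are shown with the element in capitals, since these genes are the readout of the family. Ctsa and Gla each held it at 2 positions, both of which are shown for Ctsa and 1 for Gla.
Atp6v0d1 (chr8:105566042-105566087, minus strand): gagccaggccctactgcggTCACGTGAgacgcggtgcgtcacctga
Atp6v0e (chr17:26676379-26676424, plus strand): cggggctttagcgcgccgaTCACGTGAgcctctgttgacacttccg
Atp6v1a (chr16:44139365-44139410, minus strand): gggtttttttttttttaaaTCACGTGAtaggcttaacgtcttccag
Clcn7 (chr17:25133378-25133423, plus strand): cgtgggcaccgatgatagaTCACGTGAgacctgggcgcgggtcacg
Ctsa (chr2:164833741-164833786, plus strand): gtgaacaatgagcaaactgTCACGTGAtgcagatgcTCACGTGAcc
Ctsd (chr7:142387900-142387945, minus strand): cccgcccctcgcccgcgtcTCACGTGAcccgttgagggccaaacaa
Gla (chrX:134601207-134601252, minus strand): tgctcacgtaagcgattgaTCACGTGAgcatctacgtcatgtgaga
Mcoln1 (chr8:3500454-3500499, plus strand): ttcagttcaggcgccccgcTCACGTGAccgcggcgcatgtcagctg

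The shorter E-box alone is shown for Fnip1, a folliculin partner, and Hif1a, a helix-loop-helix factor of the hypoxia response, both of which are described among the list genes.
Fnip1 (chr11:54438084-54438129, plus strand): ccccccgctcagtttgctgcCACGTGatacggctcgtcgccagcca
Hif1a (chr12:73907712-73907757, plus strand): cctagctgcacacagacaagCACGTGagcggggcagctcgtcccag
The related M-box TCATGTG, known from MITF, was in 4.31% of all genes' windows and in none of the 7 regulators with an entry. A match of letters is a description and not a measured binding site.

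In the GENCODE M21 annotation of GRCm38, on which the reads were counted, 5 of the 8 genes lie on chromosome 6, at separate places. These are Tfec (chr6:16833373-16898441, minus strand), Mitf (chr6:97807052-98021349, plus strand), Bhlhe40 (chr6:108660629-108666925, plus strand), Pparg (chr6:115360951-115490399, plus strand) and Bhlhe41 (chr6:145858243-145865558, minus strand). The others are Tfe3 (chrX:7762560-7775202, plus strand), Tfeb (chr17:47737030-47792419, plus strand) and Rxra (chr2:27676440-27762957, plus strand). All are protein-coding. The annotation gives Mitf 8 transcripts and Tfeb 15, and since counts were summed over the exons of a gene, the isoforms that start at different promoters were not told apart.

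Libraries held between 18644807 and 25882122 counted reads. Counts are given below as CPM, a gene's share of the counted reads of its library on a fixed scale, adjusted by TMM factors, which assume that most genes do not differ between libraries, and 15257 genes passed the filter on low counts, among them 7 of the 8 regulators and not Pparg. Reads were counted without strand, so reads in exon bases shared with a gene on the other strand cannot be assigned by strand. All 5 microglia markers (P2ry12, Tmem119, Cx3cr1, Sall1 and Csf1r) were present in every library, with a summed level of 25264 to 28887 CPM inside and 28175 to 34975 CPM outside the graft. All 5 were lower inside, 3 of them (P2ry12, Cx3cr1 and Sall1) with groups that did not overlap, and their median log2 fold change was -0.33 with voomWithQualityWeights. Markers of other cells did not all go the same way. Endothelial marker sums were lower inside, at 18.951 to 25.655 CPM against 27.399 to 43.49 CPM outside. The sums of neuron, astrocyte, oligodendrocyte, dendritic cell, lymphocyte and melanocyte markers overlapped between the groups. Neutrophil and monocyte sums were higher in every inside library than in any outside library, and those of border-associated macrophages were mostly higher inside. The 5 neutrophil markers summed to 648 to 13616 CPM inside and 0.311 to 287 CPM outside, and all 5 had groups that did not overlap. The 7 monocyte markers summed to 76.6 to 1361 CPM inside and 6.40 to 28.2 CPM outside, with 2 of 6 tested genes not overlapping. The 8 markers of border-associated macrophages summed to 35.1 to 156 CPM inside and 10.8 to 35.8 CPM outside, with 3 of 7 tested not overlapping. All 7 cell cycle genes were higher in each inside-graft library, with sums of 133 to 187 CPM against 41.9 to 76.4 CPM. The sort gate was CD11b+CD45low, and the study's gating also used Ly6C and Ly6G antibodies in another assay that the methods refer back to. In these bulk samples a change in the share of a cell type and a change in RNA per cell cannot be told apart.

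Of the regulators, Bhlhe40 and Tfec were higher in every library from inside the graft than in any from outside it, while Tfe3, Tfeb, Mitf, Bhlhe41 and Rxra had overlapping groups. No regulator passed the adjusted P threshold of 0.01 used in the study or a threshold of 0.05. This held with limma's voomWithQualityWeights, the test of the study, and with edgeR's quasi-likelihood test. Over all 15257 genes tested, voomWithQualityWeights called 3 genes at 0.01 (0.0197%) and 75 at 0.05 (0.492%), and edgeR called 0 at 0.01 (0%) and 15 at 0.05 (0.0983%). Unadjusted P values below 0.05 numbered 1858 and 1457 respectively, and among the regulators they were those of Bhlhe40 and Tfec in both tests. Groups that do not overlap with the inside libraries above were found for 5.65% of all genes tested and with the inside libraries below for 5.02%, against 2 and 0 of the 7 regulators tested. Of these, Tfec passed the filter on low counts only through the inside libraries, where it was high.

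**Figure D1:**
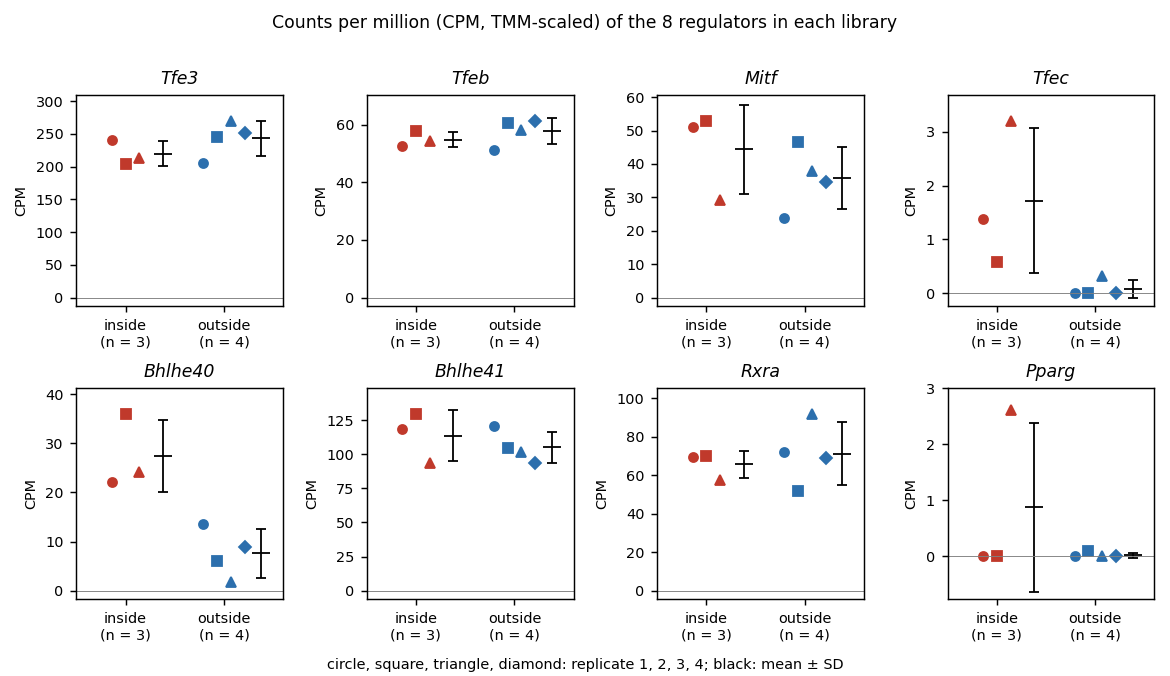
CPM (linear axes that start at or below 0) of the 8 regulators in the 3 inside-graft (red) and 4 outside-graft (blue) libraries, 1 point per library, with mean ± SD in black. The inside points of Bhlhe40 lie between 22.2 and 35.9 CPM and the outside points between 1.65 and 13.6 CPM, and Pparg has a high point only in inside graft 3.

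Per length of exon, on the RPKM scale (CPM divided by the exon length in kilobases), the order of the mean levels was the same in both groups, namely Tfe3, Bhlhe41, Rxra, Tfeb, Mitf, Bhlhe40, Tfec and Pparg. Mean levels inside the graft were 23.7 ± 2.09 RPKM for Tfe3, 16.9 ± 2.75 for Bhlhe41, 12.01 ± 1.30 for Rxra, 9.67 ± 0.471 for Tfeb, 7.16 ± 2.14 for Mitf and 5.83 ± 1.58 for Bhlhe40 (SD, n = 3). Outside the graft they were 26.3 ± 2.89 RPKM for Tfe3, 15.6 ± 1.71 for Bhlhe41, 13.0 ± 3.01 for Rxra, 10.2 ± 0.791 for Tfeb, 5.77 ± 1.52 for Mitf and 1.61 ± 1.07 for Bhlhe40 (SD, n = 4). Inside the graft, the ranges of the neighbours Mitf and Bhlhe40 overlapped, whereas outside it those of Bhlhe41 and Rxra and of Rxra and Tfeb overlapped. Tfec and Pparg stood far below the others, and their ranges overlapped each other in both groups. In rank over all tested genes, Tfe3 lay at the 87.3 percentile of RPKM inside and the 88.7 percentile outside, and Bhlhe40 at the 57.6 and 31.8 percentile.

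Tfe3, with the highest level of the set, was counted at 241, 204 and 213 CPM in inside graft 1, 2 and 3 and at 206, 246, 269 and 252 CPM in outside graft 1 to 4. Outside graft 1 and inside graft 2 were lowest and close to each other, so the groups overlapped. The fitted log2 fold change, inside over outside, was -0.19 ± 0.11 (SE, 95% interval -0.43 to 0.04, adjusted P = 0.523) with voomWithQualityWeights and -0.15 (adjusted P = 0.793) with edgeR. Tfeb, the family member best known for lysosome biogenesis, was even across libraries, at 52.5, 57.7 and 54.2 CPM inside and 51.3, 60.5, 58.1 and 61.2 CPM outside. Its log2 fold change of -0.11 had a 95% interval of -0.38 to 0.16 (voomWithQualityWeights adjusted P = 0.792), which holds differences from 0.766-fold to 1.12-fold.

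Mitf, the regulator of pigment cells, mast cells and osteoclasts, varied most among the 3 well-expressed family members. It stood at 51.2, 52.8 and 29.1 CPM inside the graft and at 23.9, 46.6, 37.98 and 34.67 CPM outside it. Inside graft 3 lay below 3 of the 4 outside libraries. Its log2 fold change was 0.26 ± 0.22 (SE, 95% interval -0.24 to 0.75, adjusted P = 0.731) with voomWithQualityWeights and 0.31 (adjusted P = 0.801) with edgeR. Markers of 2 cell types that use Mitf, mast cells and melanocytes, were near 0. The 7 mast cell markers summed to 0.0444 to 4.16 CPM inside, nearly all of the highest value being Kit in inside graft 1, with Cpa3, Tpsb2, Cma1 and Fcer1a at 0 in every library, and to 0 CPM outside. The 5 melanocyte markers summed to 0.0534 to 1.54 CPM over all libraries, with Tyrp1 at 0 in each.

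Tfec, a family member known from macrophages, had the lowest level of the 4 and the largest fitted difference. It was counted with 35, 13 and 76 reads in inside graft 1, 2 and 3 and with 0, 0, 8 and 0 reads in outside graft 1 to 4. In CPM this was 1.37, 0.577 and 3.20 inside and 0, 0, 0.322 and 0 outside, where a count of 0 allows up to 0.160, 0.133 and 0.122 CPM (3 reads) in outside graft 1, 2 and 4. Every inside library was above every outside library, although inside graft 2 and outside graft 3 were close, with exact Poisson 95% intervals of 0.307 to 0.987 and 0.139 to 0.634 CPM that overlap and cover counting error only. The log2 fold change was 4.58 ± 1.32 (SE, 95% interval 1.66 to 7.49, adjusted P = 0.163) with voomWithQualityWeights and 4.27 ± 1.35 (adjusted P = 0.290) with edgeR. With 3 of 4 outside libraries at 0 this fitted value depends on the prior count of the fit and on outside graft 3, without which edgeR gave 8.31. The ratio of the mean CPM was 21.3. Tfec passed the filter on low counts only through the inside libraries, where it was high. Its test, interval and separation of groups are therefore descriptions and no independent support.

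The order of the libraries in Tfec was that of their neutrophil marker sum among the 4 libraries with a Tfec read. Inside graft 3, with 13616 CPM of S100a8, S100a9, Ly6g, Camp and Ngp, was highest in Tfec, followed by inside graft 1 with 6485 CPM, inside graft 2 with 648 CPM and outside graft 3 with 287 CPM. The 3 libraries without a Tfec read had sums of 0.640, 0.311 and 17.3 CPM, with Ly6g and Ngp at 0 in each of them. The monocyte sum of inside graft 1, 2 and 3 was 652, 76.6 and 1361 CPM and their border-associated macrophage sum 132, 35.1 and 156 CPM, in the same order as Tfec. The part of these cells in the Tfec difference was not tested.

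**Figure D2:**
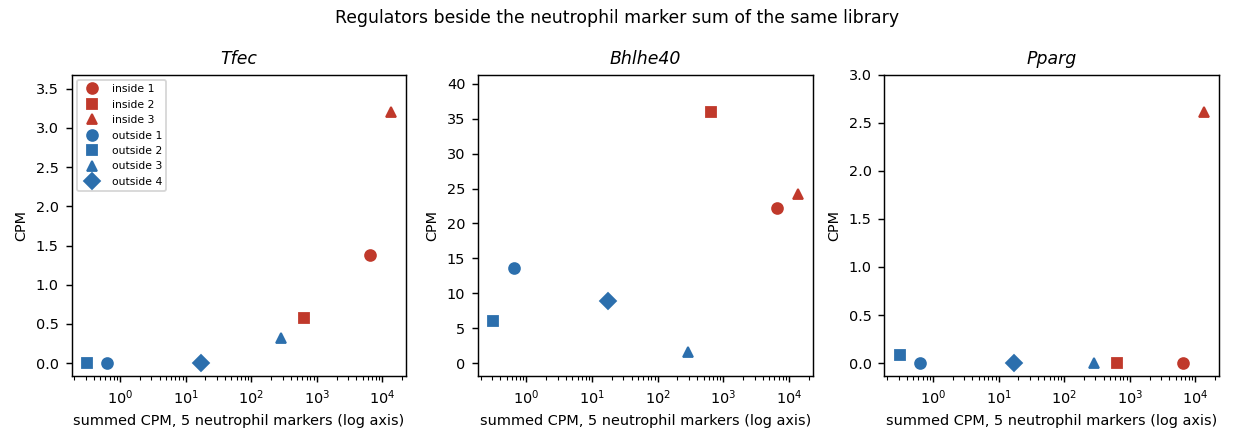
CPM of Tfec, Bhlhe40 and Pparg (linear y axes) against the summed CPM of 5 neutrophil markers (log x axis), 1 point per library, inside red and outside blue, with the marker shape giving the replicate number. Tfec is highest at the right, in inside graft 3 at 3.20 CPM, whereas Bhlhe40 is highest in inside graft 2 at 35.9 CPM, the inside library with the lowest neutrophil sum.

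As a share of the summed RPKM of the 4 family members, Tfe3 made up 59.5%, 54.0% and 60.8% inside the graft and 63.3%, 59.4%, 63.9% and 62.4% outside it. Tfeb made up 23.8% ± 2.29 inside (SD, n = 3) and 24.2% ± 1.37 outside (SD, n = 4), and Mitf 17.4% ± 4.41 and 13.5% ± 2.44. Tfec reached 1.51% in inside graft 3 and stayed at or below 0.560% elsewhere. The family sum was 40.9 ± 3.003 RPKM inside (SD, n = 3) and 42.3 ± 4.80 RPKM outside (SD, n = 4), with a lowest value of 35.2 RPKM in outside graft 1. The order was Tfe3 above Tfeb above Mitf above Tfec in every library.

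**Figure D3:**
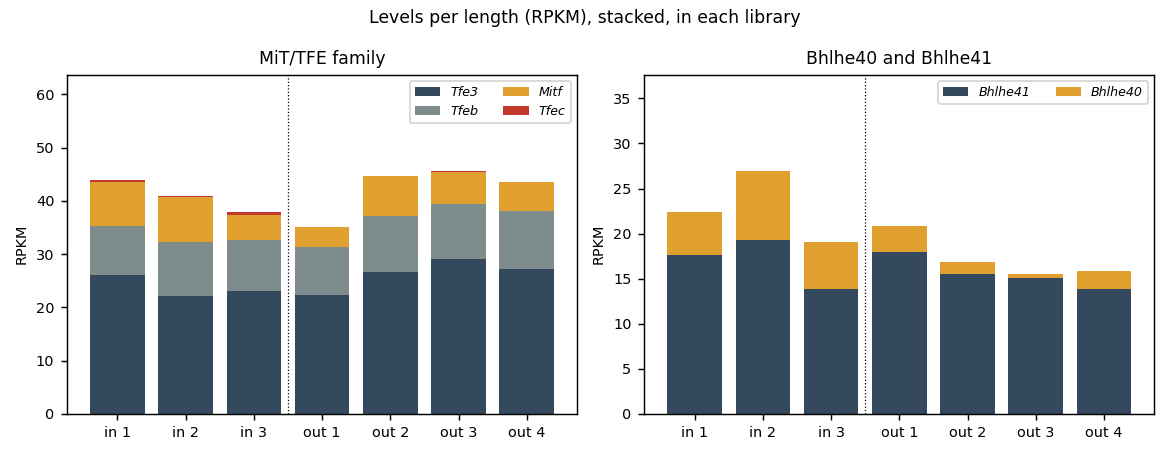
Levels per length (RPKM) stacked for the MiT/TFE family (left) and for Bhlhe41 and Bhlhe40 (right) in each library, with inside-graft libraries left of the dotted line. The family bars reach 35.2 to 45.5 RPKM with Tfe3 the tallest segment throughout, and the Bhlhe40 segment is taller in each inside library than in any outside library.

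Bhlhe40, a repressor induced by many stimuli in immune cells, had the smallest P value of the set. It was counted at 22.2, 35.9 and 24.2 CPM in inside graft 1, 2 and 3 and at 13.6, 6.05, 1.65 and 8.95 CPM in outside graft 1 to 4, from 565 to 810 reads inside and 41 to 255 reads outside. The lowest inside library stood above the highest outside library, and outside graft 3 was lowest of all. The log2 fold change was 2.51 ± 0.50 (SE, 95% interval 1.41 to 3.60, adjusted P = 0.0546) with voomWithQualityWeights and 1.86 ± 0.52 (adjusted P = 0.215) with edgeR, or 5.68-fold and 3.64-fold. By its P value from voomWithQualityWeights it ranked at place 100 of the 15257 genes.

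The size of the Bhlhe40 difference rested in part on outside graft 3, without which the log2 fold change was 1.70 (adjusted P = 0.181) with voomWithQualityWeights and 1.53 (adjusted P = 0.166) with edgeR. Among the other filters and tests tried, the threshold of 0.05 was passed when genes under 10 counts in any library were left out (voomWithQualityWeights, adjusted P = 0.0165), when no filter was used (0.0386 with voomWithQualityWeights and 0.0128 with edgeR) and with the DESeq2 Wald test (0.0135), and no alternative brought Bhlhe40 past 0.01. Bhlhe40 and the neutrophil and monocyte sums were all higher in every inside library than in any outside library, but their order within the groups differed. The highest Bhlhe40 value was in inside graft 2, where both sums were lowest among the inside libraries, and its lowest in outside graft 3, where the neutrophil sum was highest among the outside libraries. The 10 immediate early genes, which cell dissociation can induce, summed to 572 to 670 CPM inside and 575 to 693 CPM outside, with overlapping groups. Of the 9 tested, 2 (Atf3 and Ier2) were higher in each inside library than in any outside one, 3 had an unadjusted P below 0.05 with voomWithQualityWeights, and the median log2 fold change was 0.49 with voomWithQualityWeights and 0.64 with edgeR. The part of dissociation in the Bhlhe40 difference was not tested. The summed cell cycle genes were lowest inside the graft in inside graft 2, at 133 CPM. The part of neutrophils, monocytes or proliferating cells in the Bhlhe40 difference was not tested. An antisense gene that shares exon bases with Bhlhe40 had at most 1 read in any library, and the number of reads left uncounted in the shared bases is not known.

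Bhlhe41, the close relative of Bhlhe40, was at a higher level and showed no such separation. It stood at 119, 129 and 93.4 CPM inside and at 121, 104, 102 and 93.4 CPM outside the graft. Inside graft 3 and outside graft 4 had nearly the same value and were the lowest of their groups. The log2 fold change was 0.18 ± 0.13 (SE, 95% interval -0.11 to 0.47, adjusted P = 0.654) with voomWithQualityWeights and 0.12 (adjusted P = 0.879) with edgeR. A gene on the other strand shares exon bases with Bhlhe41 and was counted with 100 to 143 reads against 2217 to 3022 for Bhlhe41. How many reads in the shared bases went uncounted is not known here either. For 100 RPKM of Bhlhe41 there were 26.7, 39.7 and 37.0 RPKM of Bhlhe40 inside and 16.1, 8.29, 2.32 and 13.7 RPKM outside the graft. This within-library ratio does not depend on the scaling between libraries, and its groups did not overlap. The summed RPKM of both genes was 22.8 ± 3.94 inside (SD, n = 3) and 17.2 ± 2.49 outside (SD, n = 4), with outside graft 1 at 20.9 RPKM above inside graft 3 at 19.05 RPKM.

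Rxra, the partner receptor, was counted at 69.3, 70.1 and 57.4 CPM inside and at 72.2, 51.5, 91.6 and 69.1 CPM outside the graft. All 3 inside values lay within the outside range. The log2 fold change was -0.14 ± 0.19 (SE, 95% interval -0.56 to 0.28, adjusted P = 0.849) with voomWithQualityWeights and -0.12 (adjusted P = 0.915) with edgeR. Its sign turned when outside graft 3 was left out, to 0.10 and 0.03. Pparg was counted with 62 reads in inside graft 3 (2.61 CPM, exact Poisson 95% interval 2.00 to 3.35 CPM), 2 reads in outside graft 2 and 0 reads in the other libraries, which allows up to 0.118 to 0.160 CPM (3 reads) there. It was therefore present in 1 inside library and at the limit of detection in the others, and it did not pass the filter. Tested without a filter among 29525 genes it had an adjusted P of 0.797 with voomWithQualityWeights and 0.321 with edgeR. Inside graft 3 was also the library with the highest neutrophil, monocyte and border-associated macrophage sums, and their part in the Pparg reads was not tested.

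**Figure D4:**
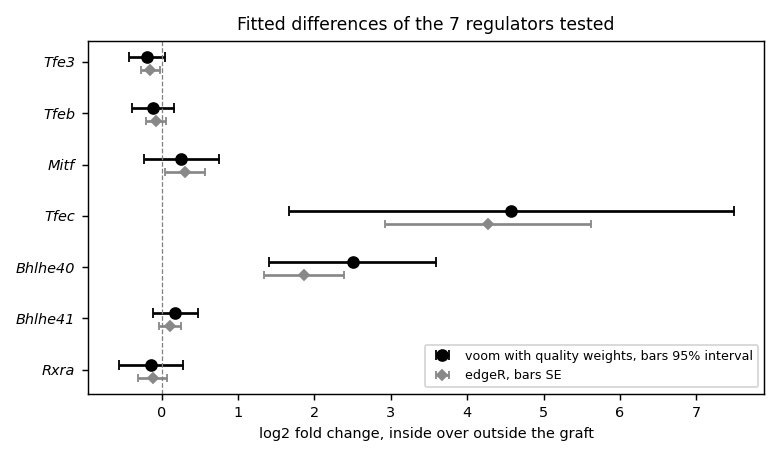
Log2 fold changes, inside over outside the graft, of the 7 regulators tested, with 95% intervals from voomWithQualityWeights (black circles) and SE from edgeR (grey diamonds). The voom intervals of Tfec (1.66 to 7.49) and Bhlhe40 (1.41 to 3.60) lie above 0, and those of the other 5 include 0. Tfec passed the filter on low counts only through the inside libraries.

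The genes around these factors were described in 7 lists of 131 genes in all. None of them passed 0.01 with either test, and the median log2 fold change over all genes tested was -0.01 with both tests. The upstream list holds mTORC1, its Rag GTPases and their regulator folliculin, and also calcineurin. These act on where TFEB and TFE3 reside. Of 22 genes tested, 10 were higher and 12 lower inside the graft, 0 were called at 0.05 with either test, and the median was -0.01 with voomWithQualityWeights and 0.01 with edgeR. Its most highly counted genes were Rptor, the mTORC1 scaffold, at 279 ± 21.7 CPM inside (SD, n = 3) and 318 ± 34.4 CPM outside (SD, n = 4), and Flcn, which activates RagC and RagD, at 269 ± 3.76 and 276 ± 34.7 CPM.

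Within that list Rragd, which encodes RagD and is itself a known target of the MiT/TFE family, was counted at 3.45, 10.3 and 3.88 CPM inside and at 0, 2.09, 0.282 and 0.932 CPM outside. Its groups did not overlap, with a log2 fold change of 3.19 ± 0.88 (SE, voomWithQualityWeights adjusted P = 0.142, edgeR adjusted P = 0.366). Fnip1 was at 76.0, 74.8 and 94.8 CPM inside and 66.9, 62.5, 69.1 and 55.6 CPM outside (log2 fold change 0.37, voomWithQualityWeights adjusted P = 0.302).

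The list of lysosome and autophagy genes had 35 genes tested, of which 25 were higher and 10 lower inside the graft, while 48.3% of all tested genes were higher. Calls at 0.05 numbered 0 with both tests. An unadjusted P below 0.05 was found for 14 genes with voomWithQualityWeights and 9 with edgeR, against 12.2% and 9.55% of all tested genes. Most of the 14 were higher inside, and the rest were lower. Groups did not overlap for 4 of the 35 with the inside libraries above and 2 below, against 5.65% and 5.02% of all tested genes. The list sum of inside graft 3, at 43554 CPM, lay within the outside range of 42310 to 47896 CPM. The median log2 fold change was 0.13 with voomWithQualityWeights and 0.18 with edgeR, and the values fitted with voomWithQualityWeights lay between -0.75 and 0.97. Ctsd, the protease cathepsin D, was at 15708, 21038 and 11722 CPM inside and 11775, 13435, 10314 and 11700 CPM outside, with overlapping groups (log2 fold change 0.47, voomWithQualityWeights adjusted P = 0.227). The tetraspanin Cd63 was at 645, 1034 and 622 CPM inside and 460, 571, 297 and 375 CPM outside, with a log2 fold change of 0.97 ± 0.22 (SE, voomWithQualityWeights adjusted P = 0.0794, edgeR adjusted P = 0.206). Scpep1, a carboxypeptidase, was at 257, 317 and 244 CPM inside and 224, 207, 183 and 201 CPM outside (log2 fold change 0.46, voomWithQualityWeights adjusted P = 0.102).

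Of the 6 MITF targets known from osteoclasts and macrophages, 2 passed the filter. Gpnmb, a lysosomal membrane glycoprotein, was counted with 86, 306 and 181 reads inside (3.38, 13.6 and 7.62 CPM) and with 0, 0, 1 and 4 reads outside. Its groups did not overlap, and it passed 0.05 with edgeR (log2 fold change 7.12 ± 0.93, SE, adjusted P = 0.0357) but not with voomWithQualityWeights (6.58 ± 1.51, SE, adjusted P = 0.0831), values that depend on the prior count because 2 outside libraries were at 0. With edgeR the call was lost without inside graft 3 or outside graft 2, 3 or 4. Gpnmb passed the filter only through the inside libraries, where it was high, so its test and separation of groups are descriptions. Inside graft 2, with the highest Gpnmb, also had the highest Mitf and Bhlhe40. In the other inside libraries Mitf went the other way from Gpnmb. Inside graft 1 had less Gpnmb than inside graft 3 (3.38 against 7.62 CPM) and more Mitf (51.2 against 29.1 CPM). Ostm1, a partner of the lysosomal chloride channel ClC-7, stood at 89.3 ± 15.1 CPM inside (SD, n = 3) and 87.3 ± 7.98 CPM outside (SD, n = 4).

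Among other nuclear receptors and cofactors, 8 of 13 genes tested were higher and 5 lower inside the graft, 0 were called at 0.05 with either test, and the median was 0.11 with voomWithQualityWeights and 0.02 with edgeR. Without inside graft 1 the former was also 0.02. The corepressor Ncor1 was at 216 ± 7.35 CPM inside (SD, n = 3) and 213 ± 12.7 CPM outside (SD, n = 4), and the coactivator Ncoa3 at 208 ± 20.7 and 213 ± 23.5 CPM. Rxrg, another RXR gene, was at 3.45, 18.3 and 5.86 CPM inside and 0, 2.54, 1.17 and 1.13 CPM outside, with groups that did not overlap (log2 fold change 2.73 ± 0.91, SE, voomWithQualityWeights adjusted P = 0.242). Ppard, a PPAR that is widely expressed, was at 18.7 ± 5.79 CPM inside (SD, n = 3) and 14.3 ± 4.49 CPM outside (SD, n = 4), with overlapping groups.

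The list of lipid genes that are targets of PPAR and LXR with RXR had 17 genes tested, 11 higher and 6 lower, with a median of 0.10 with voomWithQualityWeights and 0.08 with edgeR. At 0.05 both tests called 2, and these were Apoe and Fabp5. The calls at 0.05 rested on single libraries. With 1 library left out, Apoe lost its call with voomWithQualityWeights without outside graft 3 or 4 and with edgeR without inside graft 3 or outside graft 2, 3 or 4, whereas Fabp5 kept it only without inside graft 1 or 2 with voomWithQualityWeights and without inside graft 1 with edgeR. With voomWithQualityWeights, Apoe also lost its call when no filter was used and Fabp5 when no quality weights were used. Apoe, which encodes the main apolipoprotein of the brain, rose to 3077, 8306 and 3989 CPM inside from 1248, 1041, 627 and 868 CPM outside (log2 fold change 2.47 ± 0.30, SE, adjusted P = 0.0136 with voomWithQualityWeights and 0.0357 with edgeR). Fabp5, a fatty acid carrier that delivers ligands to nuclear receptors, rose to 9.15, 24.6 and 20.2 CPM inside from 2.72, 3.78, 1.61 and 2.31 CPM outside (2.79 ± 0.48, SE, adjusted P = 0.0398 and 0.0485). Ucp2, a mitochondrial carrier, was at 552 ± 42.4 CPM inside (SD, n = 3) and 521 ± 61.4 CPM outside (SD, n = 4). Abca1 and Abcg1, the cholesterol exporters under LXR and RXR, had log2 fold changes of 0.10 and -0.09 (voomWithQualityWeights adjusted P = 0.852 and 0.886) and were named here after their values were seen.

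BHLHE40 and BHLHE41 are known as repressors within the circadian clock. The clock list holds its activators, repressors, output factors and kinases, not only genes that they repress, and of 16 genes tested 13 were lower and 3 higher inside the graft, with a median log2 fold change of -0.32. Calls at 0.05 numbered 0 with both tests, and 8 genes had an unadjusted P below 0.05 with voomWithQualityWeights and 4 with edgeR, against 12.2% and 9.55% of all tested genes. The highest counted were the kinases of the period proteins, Csnk1e at 275, 297 and 266 CPM inside and 363.2, 341.4, 347.9 and 355.3 CPM outside (log2 fold change -0.33, voomWithQualityWeights adjusted P = 0.115) and Csnk1d at 189, 180 and 171 CPM inside and 199, 210, 258 and 242 CPM outside (-0.39, adjusted P = 0.157). Every inside value of both kinases was below every outside value. The time of day at which the mice were killed is not given in the sources used here.

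The other E-box factors divided evenly, with 6 of 12 genes higher and 6 lower inside the graft and a median of 0.01 with voomWithQualityWeights and -0.05 with edgeR. The sign of this median was not stable, with values from -0.19 without inside graft 2 to 0.14 without inside graft 3 with voomWithQualityWeights. Hif1a, the oxygen-regulated factor whose promoter stretch is shown above, was at 368, 263 and 269 CPM inside and 155, 188, 152 and 188 CPM outside. It passed 0.05 with voomWithQualityWeights (log2 fold change 0.82 ± 0.14, SE, adjusted P = 0.0398) and not with edgeR (adjusted P = 0.0747), and with 1 library left out it kept the call only without inside graft 2. Srebf2, the regulator of cholesterol synthesis, stood at 57.6, 62.3 and 58.2 CPM inside and 41.04, 33.1, 29.5 and 40.1 CPM outside, with groups that did not overlap and an adjusted P of 0.0546 with voomWithQualityWeights and 0.105 with edgeR. Mlxip, a glucose-responsive factor, was at 110 ± 12.6 CPM inside (SD, n = 3) and 126 ± 9.05 CPM outside (SD, n = 4).

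**Figure D5:**
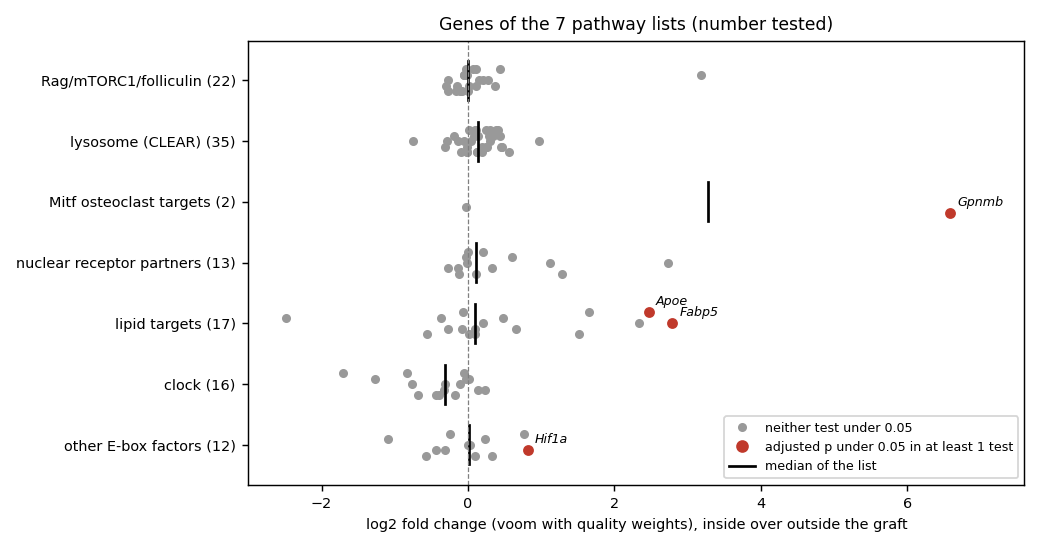
Log2 fold changes (voomWithQualityWeights, inside over outside the graft) of the tested genes of the 7 lists, 1 point per gene, spread vertically only for legibility, with the list median as a black bar. Red and named are the 4 genes with an adjusted P below 0.05 in at least 1 test (Gpnmb, Apoe, Fabp5 and Hif1a), and the medians run from -0.32 for the clock list to 3.27 for the 2 tested MITF targets.

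The genes whose levels most resembled those of Bhlhe40 and Tfec over the 7 libraries were sought by the root mean square difference of centred log2 CPM among tested genes with a mean of at least 1 CPM. For Bhlhe40 these were Pianp at 0.29, the Src-family kinase Fgr at 0.45 and the small GTPase Rnd2 at 0.49, against a median of 1.43 over 13142 candidates. Fgr, expressed in myeloid cells, was counted at 25.7, 37.6 and 22.3 CPM inside and 13.9, 8.90, 4.18 and 13.8 CPM outside the graft. Like Bhlhe40, it was highest in inside graft 2 and lowest in outside graft 3. Pianp had only 39, 54 and 39 reads inside and 23, 12, 3 and 21 reads outside, and the groups of Rnd2 overlapped. For Tfec the nearest genes were the exchange factor Net1 at 0.56, the zinc finger factor Klf5 at 0.56 and the semaphorin receptor Plxnc1 at 0.61. The median was 2.02 over 13143 candidates. In outside graft 1 to 4, Net1 had 0, 0, 6 and 0 reads and Klf5 1, 0, 4 and 0 reads. Their nearness to Tfec therefore rests in part on shared values at or near 0. Plxnc1 was counted at 11.7, 3.28 and 26.2 CPM inside and 0.374, 0.356, 1.21 and 1.05 CPM outside, with the same order among the inside libraries as Tfec. All these libraries share the split into groups, which every gene that differs between the groups follows in part.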

How the data were processed

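Per the labels, microglial RNA of 7 libraries was amplified from very small inputs and sequenced as single reads. The authors aligned reads with STAR 2.7.2a to GRCm38.p6 and counted them with featureCounts 1.6.2 on the GENCODE M21 annotation; the deposited values are these raw counts (versions from the submitters' processing notes), without strand and without multimapping reads, so genes with near copies are undercounted. Reads were amplified and carry no molecular identifiers, so intervals cover counting error only.

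From these counts, CPM, RPKM (with the deposited exon lengths) and tests were computed in R 4.3.3 with TMM factors, edgeR's filterByExpr, limma 3.58.1 (voomWithQualityWeights, the main test) and edgeR 4.0.16 (quasi-likelihood, SE implied by F), with Benjamini-Hochberg adjustment over 15257 genes and thresholds of 0.01 and 0.05. Library weights ran from 0.448 (outside graft 1) to 1.76 (outside graft 4). Groups and replicate numbers came from the labels. The members and lists were chosen with earlier results of these data known. Named genes were the 8 regulators, in each list the 2 with the highest mean CPM and the 2 with the smallest P, and the 3 genes nearest in pattern to Bhlhe40 and Tfec. A gene that this rule names is not reported here. The alternatives tried were other scaling factors, filters, tests (with DESeq2 1.42.0), the replicate number as a block and each library left out. Scripts were tested on simulated data. Promoter windows came from the RefSeq table for GRCm38.p6.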

Additional observations from a re-analysis of the deposited data

Results flagged for a closer look

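Among the 4 outside-graft libraries, 51 values were screened for a library far from the others, by Dixon's ratio of the gap to the range. They were the 8 regulators, the named list genes and the list sums. The cut-off marks about 1 in 20 of independent, normally distributed values. Some sums contain named genes and some values are mostly 0, so no number expected by chance is given. The ratio marked 5 values. For the regulators these were Tfec in outside graft 3, at 0.322 CPM with the other libraries at 0, and Pparg in outside graft 2, at 0.0890 CPM, which is 2 reads, with the others at 0. When all other libraries are at 0 the ratio is fixed at 1, so both were certain to be marked. With so few reads, either value means only that reads were present in that library alone. The neutrophil marker sum was 287 CPM in outside graft 3 against 0.311 to 17.3 CPM in the others, the same library that held the Tfec reads. The immediate early gene sum was 575 CPM in outside graft 1 against 674 to 693 CPM, and Ucp2 was 612 CPM in outside graft 2 against 478 to 501 CPM.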

How the results depend on the processing

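Of 215 fitted log2 fold changes of the 7 tested regulators under the alternatives, 213 kept the direction of the reported value. The exceptions were Rxra without outside graft 3, and over the libraries left out its value ran from -0.26 to 0.10 with voomWithQualityWeights and from -0.24 to 0.031 with edgeR. The 215 include the values at the threshold of 0.05 and those with edgeR's robust option. Both sets equal the reported values, so they could not change direction. The number of regulators past 0.01 was 0 under every alternative. Over all alternatives the Bhlhe40 value ran from 1.70 to 2.75 (adjusted P 0.0165 to 0.181) with voomWithQualityWeights and from 1.53 to 2.35 (adjusted P 0.0128 to 0.434) with edgeR, and that of Tfec from 4.03 to 5.95 (adjusted P 0.0549 to 0.449) and from 3.47 to 8.31 (adjusted P 0.108 to 0.678). Tfec was not tested when genes under 10 counts in any library were left out.

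Of the list genes, 0 passed 0.01 with either test as reported. With voomWithQualityWeights the number was 3 without genes under 10 counts in any library, 3 at the threshold of 0.05 and 0 to 2 over the libraries left out. With edgeR it was 4 with no filter, 2 without genes under 10 counts in any library, 3 at the threshold of 0.05, 0 with each library left out and 7 with the DESeq2 Wald test, which called 232 of all genes. At 0.05 the number over the libraries left out was 0 to 5 with voomWithQualityWeights and 0 to 3 with edgeR, and 0 was reached without outside graft 3 or 4 with the former and without inside graft 3 or outside graft 2, 3 or 4 with the latter. The clock list median stayed between -0.39 and -0.20 under all alternatives of both tests and the lysosomal list median between 0.06 and 0.28, whereas that of the other E-box factors changed sign (-0.19 to 0.14). The causes of these differences were not tested.

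With a block for the replicate number, in a fit that leaves out outside graft 4, voomWithQualityWeights called 5 list genes at 0.01 and edgeR 0, and Bhlhe40 had an adjusted P of 0.0201 and 0.271. Over all genes tested, this fit called 77 at 0.01 with voomWithQualityWeights and 5 with edgeR, against 0 with both tests when outside graft 4 was left out without a block. Libraries of the same number had correlations of deviations of -0.04, 0.09 and 0.07, and those of different numbers ran from -0.12 to 0.06. These correlations cannot decide whether the numbers pair the libraries. The labels name no pairs, so the reported tests used none. Low counts limit what can be said of Tfec and Pparg, and with 3 against 4 libraries the intervals of Tfeb, Tfe3 and Bhlhe41 still hold changes of up to 1.39-fold.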
